A study of Mus musculus with 10 samples.

Results

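A dense run of STAT5 binding sites lies in the region of mouse chromosome 11 that holds Socs3. The run was among the largest STAT5A clusters in mammary tissue. The region is chr11:117780000-117900000 (mm9, 120 kb). It was selected on the number of wild type STAT5A peaks called there, as one of the clusters with the most, and because it holds Socs3. That number is therefore a description and was not tested. Its members are the peaks that overlap it in 3 deposited peak lists: 17 of 26237 wild type STAT5A peaks, 9 of 6976 wild type STAT5B peaks and 2 of 2578 Stat5a-null STAT5B peaks, 28 of 35791 peaks in all.

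The peaks come from chromatin immunoprecipitation followed by sequencing (ChIP-seq) of mouse mammary tissue taken on the day of parturition, from mice of the mixed strain background 129SV::FVB/N::C57BL/6. Wild type mice (AABB) carried Stat5a and Stat5b, and Stat5a-null mice (BB) retained Stat5b alone. Each group was 1 library, the labels do not say how many animals it came from, and the other 7 samples of the series were not analysed here. Differences between groups therefore could not be set against a spread between replicates, and no test was made. Whole tissue was used, so fewer cells with a bound site and less binding per cell cannot be told apart, and peak lists alone give no check of the tissue or the genotype.

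SOCS3 is a cytokine-inducible inhibitor of JAK and STAT signalling. Its SH2 domain docks on activated receptors, it blocks JAK kinases, and its SOCS box recruits a ubiquitin ligase. The gene is transcribed in response to STAT proteins and so closes a negative feedback loop. In the mammary gland prolactin acts through JAK2 on STAT5A and STAT5B during pregnancy and lactation, and SOCS3 is also known there for restraining STAT3 signalling at involution. STAT5 dimers bind the palindrome TTCNNNGAA.

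RefSeq (GRCm38.p6) places Socs3 between the lncRNA gene Gm11725 and Pgs1, which encodes a phosphatidylglycerophosphate synthase. Beyond Gm11725 lie Tha1, a threonine aldolase gene, Tmem235 and Birc5, the gene of the apoptosis inhibitor survivin. Beyond Pgs1 lie Mir6933 and Dnah17, an axonemal dynein gene. The gene table is of another build than the peaks, so no distance from a peak to the Socs3 start was computed and no peak was assigned to a gene. Peaks are placed instead by their distance from the highest STAT5A peak of the region, with negative values toward lower coordinates.

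The Socs3 promoter is shown because it holds a match to the palindrome that STAT5 binds. It is the RefSeq sequence of the 250 bases before the annotated start (GRCm38.p6, minus strand, chr11:117969367-117969616), 5′ to 3′, with the match in capitals:
Socs3: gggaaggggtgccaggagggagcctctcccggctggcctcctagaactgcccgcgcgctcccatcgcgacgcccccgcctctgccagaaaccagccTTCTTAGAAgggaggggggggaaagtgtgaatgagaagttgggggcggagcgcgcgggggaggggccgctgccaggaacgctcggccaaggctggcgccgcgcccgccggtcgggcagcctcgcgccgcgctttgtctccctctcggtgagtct
The stretch has a GC content of 71.6%. The motif searched was TTCNNNGAA, which reads the same on both strands, and the match TTCTTAGAA lies at positions -154 to -146 from the start. Of 32851 RefSeq promoter stretches of this length, 7.02% hold at least 1 match. Of the other 7 members of the CIS and SOCS family (Cish, Socs1, Socs2, Socs4, Socs5, Socs6 and Socs7), Cish, Socs1 and Socs4 are in the table, and none of their stretches holds a match. Of the prolactin pathway genes Prlr, Jak2, Stat5a and Stat5b, 1 of 3 Prlr stretches has a match (TTCTAGGAA), and the stretches of the others have none. Whether one of the peaks lies on the Socs3 promoter was not determined, and peak sequences were not read.

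Scores are the authors' own value per peak, on a scale that is not stated, and are ranked within their list. In each list every score was a whole multiple of 1 step, which was read as the value of 1 sequencing tag, so that tags per peak could be computed. Over whole lists the weakest peak held 64 tags for STAT5A and 39 tags in each STAT5B list.

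STAT5A bound the region in 2 unlike parts. From -38.3 kb to 0 kb stood 11 peaks with scores from 46.2 to 109.9. The other 6 STAT5A peaks, outside that stretch, had scores from 14.9 to 32.8. The highest peak of the region, chr11:117868783-117869058, scored 109.9 (640 tags) and ranked 1279 of 26237, within the top 4.87% of the list. The next was chr11:117840830-117841105 at -28.0 kb, with a score of 86.9 (506 tags, rank 2409). Below it came chr11:117830448-117830723 at -38.3 kb, with a score of 83.5 (486 tags, rank 2643). The region thus held many fairly strong sites rather than a top-ranked one. Of its 17 STAT5A peaks, 9 fell in the highest-scoring 2 deciles, and 2 in the highest decile.

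The remaining strong sites lay in a group of 5 between -15.6 kb and -7.00 kb and in the stretch around -28 kb. The group of 5 held chr11:117855206-117855481 (score 80.6), chr11:117859683-117859958 (70.1), chr11:117856660-117856935 (68.5), chr11:117853160-117853435 (62.3) and chr11:117861788-117862063 (59.4). Around -28 kb stood chr11:117840030-117840305 (67.3), chr11:117837451-117837726 (48.8) and chr11:117843057-117843332 (46.2). All 6 weak sites lay to either side of the stretch of strong sites. A run of 4 weak peaks, from chr11:117819490-117819765 to chr11:117824769-117825044, lay between -49.3 kb and -44.0 kb with scores of 20.6, 23.4, 32.8 and 22.7. Single weak peaks lay at 7.99 kb (chr11:117876776-117877051, 17.9) and at -71.2 kb (chr11:117797573-117797848, 14.9).

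**Figure D1:**
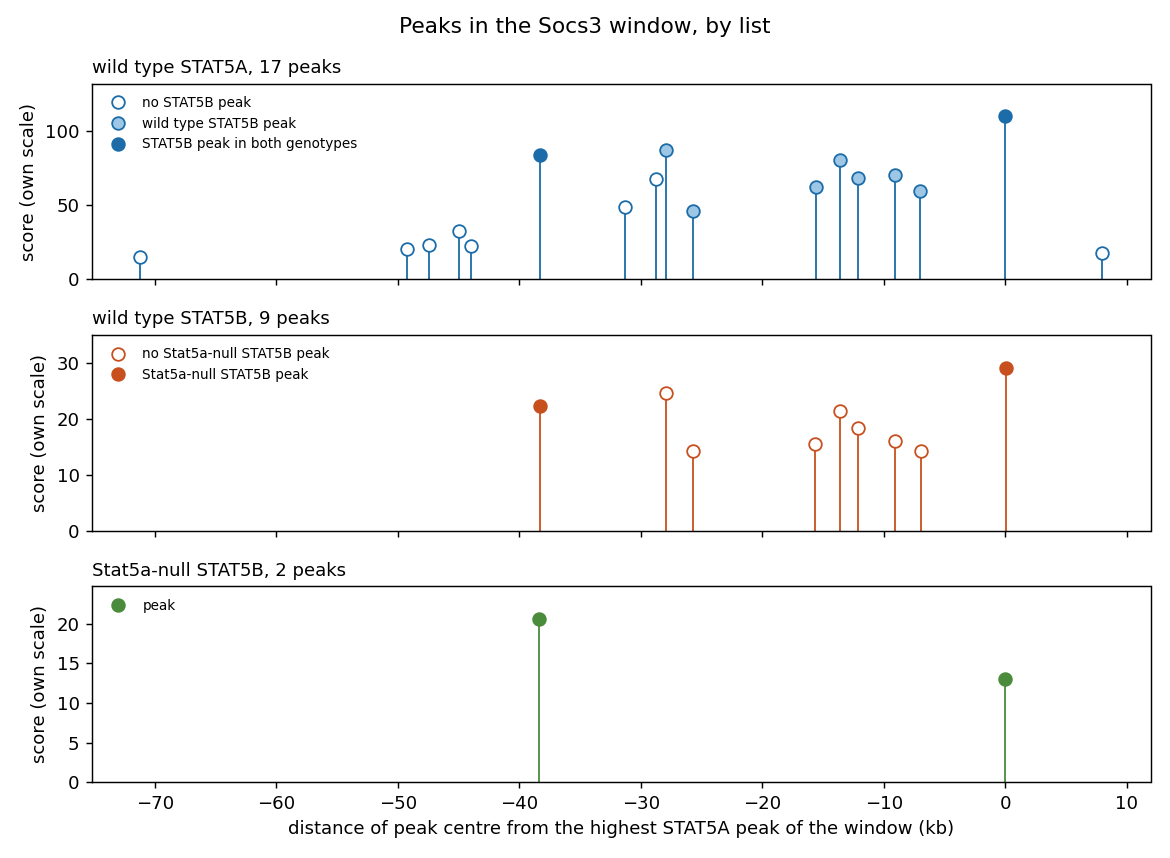
Score of each peak (vertical axis, each list on its own scale) against the distance of its centre from the highest STAT5A peak of the Socs3 region in kb, for 1 library per panel. Filled and open points show which other lists hold a peak there: the 2 Stat5a-null peaks stand at the left end and at the right end of the stretch of strong STAT5A sites, and none was called between them.

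All but the peak at -71.2 kb form 1 cluster by the rule of 5 or more peaks with gaps of up to about 13 kb. Inside it, centres of neighbouring STAT5A peaks were 0.800 to 10.1 kb apart with a median of 2.48 kb. Over the whole list the median was 23.8 kb. The cluster rule caps the gaps and the region was chosen on its peak count, so closer spacing was fixed in advance. The nearest STAT5A peaks outside the 120 kb region are chr11:117775991-117776266 (score 23.4), 3.73 kb before the start of the region, and chr11:117924689-117924964 (score 70.1), 24.7 kb beyond its end.

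STAT5B in wild type tissue was called at 9 of the 11 strong STAT5A sites of the region (scores of 46.2 and above) and at none of the 6 weak ones. The weak sites held 87 to 191 STAT5A tags. Over all sites with both peaks the median ratio of STAT5B to STAT5A tags was 0.182, and the weakest STAT5B peak held 39 tags. A missing STAT5B call at a weak site therefore does not show that STAT5B was absent. Of the 17 STAT5A peaks, 9 had a wild type STAT5B peak, a share of 52.9% (exact Clopper-Pearson 95% interval 27.8% to 77.0%, counting error only). Over the whole STAT5A list the share was 26.3%. The 17 peaks are neighbours in the same library and not replicates, so the interval cannot serve as a test against that share. The 9 STAT5A peaks with STAT5B had scores from 46.2 to 109.9 with a median of 70.1. The 8 without it had scores from 14.9 to 67.3 with a median of 23.05. The groups overlap through 2 peaks, chr11:117840030-117840305 and chr11:117837451-117837726, which outscored the weakest STAT5A peak with STAT5B.

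Read by score, this is close to what the whole list shows. STAT5A peaks of the highest decile had a STAT5B peak in 99.2% of cases, and both such peaks of the region had one. In decile 2 the share was 90.3%, and 6 of 7 peaks of the region had STAT5B. In decile 3 it was 54.2%, and 1 of 2 had it. None of the 6 peaks from lower deciles had it, where the share over the list was 3.13% at most in the deciles concerned. The one second-decile peak without STAT5B, chr11:117840030-117840305 (392 tags), lies 800 bp from the second-highest STAT5A peak of the region, which has STAT5B.

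**Figure D2:**
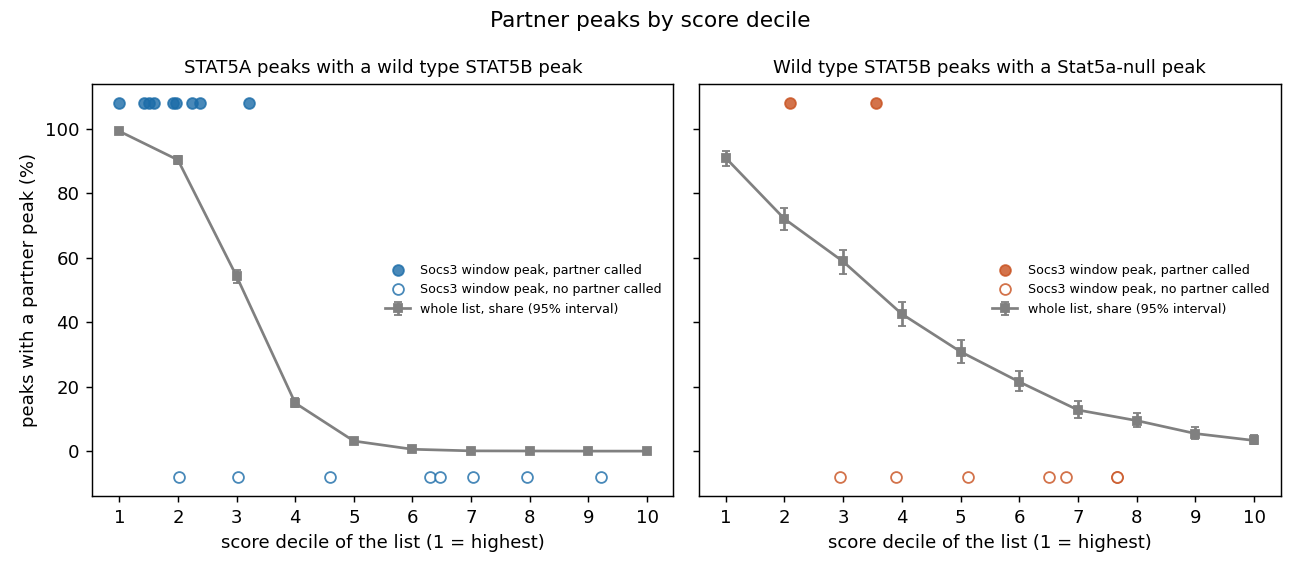
Share of all peaks of a list that have a partner peak (vertical axis, percent, with exact 95% intervals) by score decile (horizontal axis), for STAT5A peaks with wild type STAT5B (left) and wild type STAT5B peaks with Stat5a-null STAT5B (right). Points above and below the curves are single peaks of the Socs3 region with and without a partner: 9 of 17 have one on the left and 2 of 9 on the right.

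All 9 wild type STAT5B peaks of the region overlapped a STAT5A peak (98.7% over the whole list). Their centres lay 3 to 28 bp from the STAT5A centre with a median of 9 bp, and over all 6888 such pairs the median was 19 bp. Both STAT5B peaks of Stat5a-null tissue overlapped a STAT5A peak (98.4% over the list) and a wild type STAT5B peak (94.1%).

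STAT5B ranked the sites of the region nearly as STAT5A did. The highest wild type STAT5B peak was chr11:117868823-117869074 with a score of 29.1 (122 tags, rank 1113 of 6976), at the highest STAT5A site. Next came chr11:117840839-117841090 with 24.6 (103 tags, rank 1702) and chr11:117830451-117830702 with 22.2 (93 tags, rank 2138), the same sites that follow the highest one for STAT5A. The fourth, chr11:117855222-117855473, scored 21.3 (89 tags). The order of the 9 sites was the same in both lists except for one neighbouring pair, chr11:117856693-117856944 (18.4, 77 tags) and chr11:117859703-117859954 (16, 67 tags), which stood the other way round for STAT5A, and a tie at the bottom. The last 3 were chr11:117853157-117853408 (15.5, 65 tags) and the tied chr11:117843061-117843312 and chr11:117861825-117862076 (14.3, 60 tags each).

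The ratio of STAT5B to STAT5A tags was alike over the 9 sites and near that of the genome. It ran from 0.164 at chr11:117859683-117859958 to 0.223 at chr11:117843057-117843332. Over all 6888 sites with both peaks the median was 0.182 and the quartiles were 0.164 and 0.204. The site at -25.7 kb had a higher ratio than 88.4% of all sites, and the other 8 had a higher one than 24.9% to 75.04% of them. The ratio depends on the depth of the 2 libraries. Its place among these sites is unchanged when all ratios are scaled alike. STAT5A sites without a STAT5B call are missing from this distribution, and which sites are called can depend on depth. In STAT5A decile 3, which holds the site at -25.7 kb, 54.2% of peaks had a STAT5B call.

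In Stat5a-null tissue 2 of the 9 STAT5B sites were called, 22.2% (exact 95% interval 2.81% to 60.01%). Over all wild type STAT5B peaks the share was 34.8%, inside that interval. The 9 peaks are neighbours in 1 library and not replicates, so a difference from the genome was not tested. Seen from STAT5A, 2 of 17 peaks had a Stat5a-null STAT5B peak, 11.8% (1.46% to 36.4%), and over the list 9.67%. Merged on overlap, the region had 17 sites: 8 with a STAT5A peak alone, 7 with STAT5A and STAT5B peaks in wild type tissue only, and 2 in all 3 lists. No site of the region had STAT5B without STAT5A.

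The 2 sites kept in Stat5a-null tissue stand at the ends of the stretch of strong sites. The left one, at -38.3 kb, had a Stat5a-null peak at chr11:117830446-117830703 with a score of 20.6 (98 tags, rank 805 of 2578). The right one, at the highest STAT5A site, had a Stat5a-null peak at chr11:117868768-117869025 with a score of 13 (62 tags, rank 2031). The Stat5a-null peaks nearest to the region were chr11:117743222-117743479 (score 14.3), 36.5 kb before it, and chr11:118995129-118995386 (29.5), 1095 kb beyond it.

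Wild type score did not fully order which sites were kept. The 2 kept sites had ranks 1 and 3 among the 9 STAT5B peaks of the region, and the peak of rank 2, at -28.0 kb (score 24.6), had no Stat5a-null peak. Over the whole list 58.8% of peaks in its decile were kept, 72.1% in the decile of the highest peak and 42.6% in the decile of the left kept site. The site at -13.6 kb (21.3) was in that same decile as the left kept site and was not kept. The other 5 sites not kept had scores from 14.3 to 18.4, and the share kept in their deciles was from 9.47% to 30.8%. The weakest peak of the Stat5a-null list held 39 tags, and the files give no level for the 7 sites that were not called.

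The kept sites changed places between genotypes. In wild type tissue the right site was the higher of the pair for both proteins: it held 640 STAT5A tags and the left site 486, and it held 122 STAT5B tags and the left site 93. In Stat5a-null tissue the left site held 98 STAT5B tags and the right site 62. The left site thus had 43.2% of the pair's STAT5A tags (exact 95% interval 40.2% to 46.1%), 43.3% of the wild type STAT5B tags (36.5% to 50.2%) and 61.2% of the Stat5a-null STAT5B tags (53.2% to 68.8%). These intervals cover counting error within single libraries and compare 3 libraries, not 3 conditions. The comparison of the 2 sites was added after the data were seen, and the shares were not tested against each other.

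**Figure D3:**
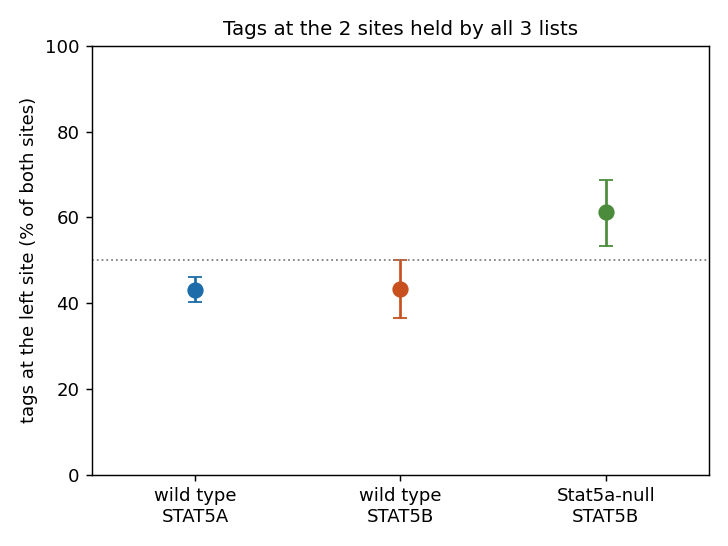
Share of tags at the left site (vertical axis, percent of the tags of the left and right kept sites together) in each of the 3 libraries, with exact 95% intervals for counting error; the dotted line marks 50%. The share is 43.2% and 43.3% in the wild type libraries and 61.2% in the Stat5a-null library.

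Set among all STAT5B sites called in both genotypes, the kept sites lay toward opposite ends. Stat5a-null tags over wild type STAT5B tags came to 1.05 at the left site and 0.508 at the right site. The ratio depends on the depth of the 2 libraries, which is unknown, so its value alone does not show a gain or loss of binding. Over 2426 shared sites the median was 0.792, with quartiles of 0.659 and 0.9503. A lower ratio than at the left site was found at 86.7% of these sites, and a lower ratio than at the right site at 5.85%. Both sites are outside the quartiles, yet a changed order is not rare. Among all pairs of shared sites with unequal tags in both lists, 24.3% stood in the opposite order in the 2 genotypes. That share covers pairs with any difference in tags. The share among pairs as close in wild type tags as the 2 kept sites was not computed. Sites not called in Stat5a-null tissue are missing from this distribution.

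The Socs3 cluster was set beside the other STAT5A clusters of 5 or more peaks. It spans chr11:117819490-117877051 and tied at 16 STAT5A peaks with the cluster at chr15:66911887-66993369, the most among 434 clusters (median 6). With 9 wild type STAT5B peaks it came second to that cluster, which had 13, and the median was 2. With 2 Stat5a-null STAT5B peaks it stood lower in the order: 38 clusters held more and 57, itself included, held 2. The median was 0.5, and 78.1% of clusters held fewer. The chromosome 15 cluster kept 5 of its 13 STAT5B peaks, and the next largest, chr13:103636594-103696332 with 13 STAT5A peaks, kept 0 of 6. Over all wild type STAT5B peaks 34.8% were kept. The differences between these clusters were not tested, since peaks of 1 library are not replicates. The median STAT5A score in the Socs3 cluster was 60.85, higher than in 83.2% of clusters, and its highest peak exceeded that of 66.4%. The chromosome 15 cluster had a median of 70.8 and a highest score of 151.7, and the chromosome 13 cluster 41.9 and 108.7.

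**Figure D4:**
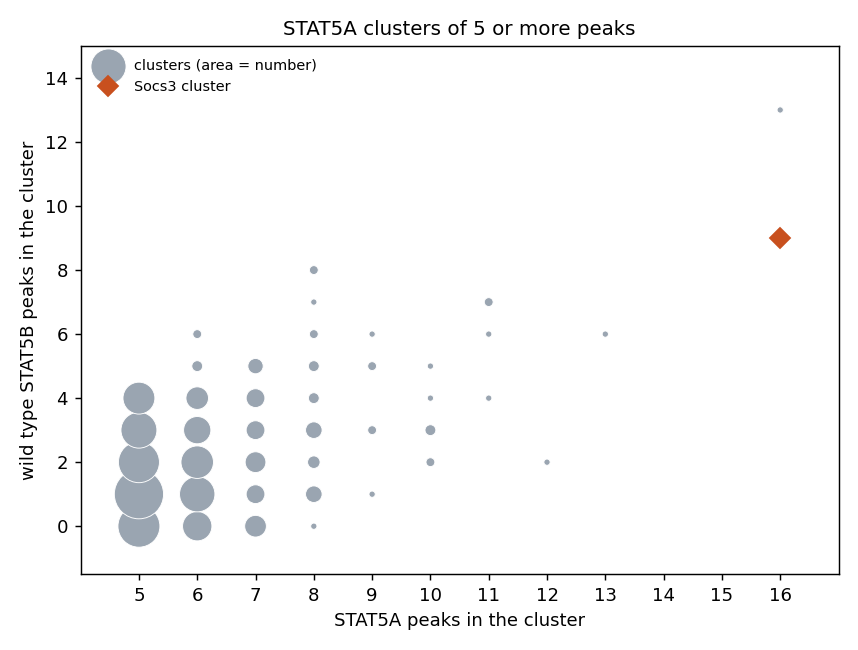
Wild type STAT5B peaks (vertical axis) against STAT5A peaks (horizontal axis) in each of 434 STAT5A clusters, with circle area proportional to the number of clusters at a point. The Socs3 cluster (diamond) has 16 STAT5A and 9 STAT5B peaks, and the one point above it is the chromosome 15 cluster with 16 and 13.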

How the data were processed

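The 3 peak lists hold 1 ChIP-seq library each. Per the submitters' processing notes CASAVA, BWA and HOMER were used on the mm9 build. The labels list an input library per genotype. Tool versions, which control each peak call used and what its thresholds were are not stated in the labels. The deposited value per peak is a signal of unstated scale (the score). Starts were read as 0-based and are printed 1-based. Peaks of a list have 1 width: 276 bp for STAT5A, and for STAT5B 252 bp in wild type and 258 bp in Stat5a-null tissue. The score step (0.172, 0.239 and 0.210 in that order) is the largest from 0.155 to 0.40 of which every score is a whole multiple within 0.0505. Total reads are unknown.

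An overlap of 1 bp or more made peaks shared. Ties in rank follow the order of the deposited list. Every peak of the region is named. The region and lists were chosen with earlier results of these data known. A planned motif search in peaks and their position to genes were not run, since the genome of that build was not used here. The software was Python 3.11.15 with pandas 2.3.3, numpy 2.4.6, matplotlib 3.10.9 and scipy 1.17.1. Overlaps were tested on simulated data with 500 planted pairs, and 6 counts equalled those of bedtools 2.31.1.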

Additional observations from a re-analysis of the deposited data

How the results depend on the processing

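Of 44 alternatives to 14 values, 33 stayed within the counting interval or within 1.5 times the count, and 11 moved. Requiring 50% overlap of both peaks, centres within 100 bp or allowing a 500 bp gap changed none of the 4 shares of the region, and merging across 500 bp gaps changed no site count. Cutting each list to the length of the shortest left 2 STAT5A and 4 wild type STAT5B peaks in the region. The share of STAT5A peaks with wild type STAT5B was then 100% (2 of 2). That of STAT5A peaks with Stat5a-null STAT5B was 50% (1 of 2). That of wild type STAT5B peaks with STAT5A was 50% (2 of 4), with fewer peaks by construction. Shares over the whole cut lists were not computed, so these values cannot be set beside the genome. The share of wild type STAT5B peaks kept in Stat5a-null tissue went from 22.2% (2 of 9) to 50% (2 of 4), within the interval of the former. The higher-scoring 50% of each list left 5 wild type STAT5B and 1 Stat5a-null peak, with 4 sites of STAT5A and STAT5B in wild type tissue and 1 in all 3 lists. A cluster gap of 5 kb left 5 peaks in the largest cluster of the region. The stricter motif TTCCNNGAA or TTCNNGGAA, added after the data were seen, had 0 matches in the Socs3 promoter stretch and at least 1 in 4.06% of all stretches. Scores in place of tags, also added later, gave 61.3% and 43.3% for the left kept site in Stat5a-null and wild type STAT5B. Tags are the scores divided by 1 step per list, so these alternatives could not move and are no check. Both are counted among the 33. No paired analysis was possible because each group holds 1 library, and for the same reason no replicate could be left out. Unknown total reads limit what an uncalled site means.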
